A study of Mus musculus with 6 samples.

Results

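The genes described here are 10 components of the cytosolic system that senses nucleic acids, with the enzymes and regulators that restrain it: Ddx58, Ifih1, Dhx58, Mavs, Tmem173, Zbp1, Trex1, Samhd1, Adar and Eif2ak2. They were taken by symbol from a table of 55304 gene symbols, and all 10 were present and were tested. RNA was sequenced from mouse microglia, the brain's resident macrophages, that were obtained from digested brain by flow sorting on CD45 and CD11b. The mice were C57BL/6 animals described as adult, at 4 to 5 weeks. The WT group (3 libraries) had the genotype QKIfl/fl, in which the Qk gene carries loxP sites, and their labels name no Cre. The KO group (3 libraries) had the genotype QKIflfl; Cx3cr1cre-ert2, which adds a Cre recombinase fused to an estrogen receptor and expressed from the Cx3cr1 locus, a gene active in microglia and in other cells of the monocyte and macrophage lineage. Floxed Qk alleles are common to both groups, and Cre is named for KO alone, so its presence and the intended loss of QKI, an RNA-binding protein of splicing and mRNA stability, cannot be told apart. The labels name no tamoxifen, on which such a fusion depends.

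Mammalian cells carry proteins that recognise nucleic acids out of place. RIG-I (Ddx58) and MDA5 (Ifih1) are helicases that bind viral or misplaced double-stranded RNA and pass the signal to MAVS (Mavs) on the mitochondrial surface. LGP2 (Dhx58) is their relative without the signalling domains and tunes them. STING (Tmem173) is the receptor at the endoplasmic reticulum for the cyclic dinucleotide that the DNA sensor cGAS makes. ZBP1 (Zbp1) binds nucleic acids in the left-handed Z form and can trigger cell death, and PKR (Eif2ak2) binds double-stranded RNA and halts translation. The brakes remove or disguise the ligands: TREX1 (Trex1) degrades cytosolic DNA, SAMHD1 (Samhd1) hydrolyses deoxynucleotides, and ADAR1 (Adar) edits adenosines in double-stranded RNA so that self RNA escapes MDA5. Both routes lead to type I interferon, and several of the genes are themselves induced by it. Inherited loss of TREX1, SAMHD1 or ADAR1, or activating changes in MDA5, cause Aicardi-Goutieres syndrome, an inflammatory disease of the human brain.

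Promoter sequences of a few members are shown first, with their matches to the interferon-stimulated response element (ISRE), the sequence through which type I interferon is known to act on promoters. RefSeq promoter windows (GRCm38.p6; 250 bases before and 50 after an annotated start, 300 in all) were found for 7 of the 10 members: Ddx58, Ifih1, Mavs, Trex1, Samhd1, Adar and Eif2ak2, with 10 windows because Adar has 3 and Trex1 has 2. Each window below runs 5′ to 3′ along the gene, in lower case. Capitals mark matches on either strand to the ISRE core, which is GAAA, any 2 bases and GAAA again, or to the shorter GAAANNGAA, which lies within it.
Ddx58, chr4:40239776-40240075, minus strand: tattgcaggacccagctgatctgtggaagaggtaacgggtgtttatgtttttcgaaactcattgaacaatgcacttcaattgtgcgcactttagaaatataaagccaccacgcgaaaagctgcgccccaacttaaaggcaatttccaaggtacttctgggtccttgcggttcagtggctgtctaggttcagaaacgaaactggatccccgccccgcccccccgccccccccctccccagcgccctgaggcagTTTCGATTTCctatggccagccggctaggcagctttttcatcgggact
Ifih1, chr2:62646206-62646505, minus strand: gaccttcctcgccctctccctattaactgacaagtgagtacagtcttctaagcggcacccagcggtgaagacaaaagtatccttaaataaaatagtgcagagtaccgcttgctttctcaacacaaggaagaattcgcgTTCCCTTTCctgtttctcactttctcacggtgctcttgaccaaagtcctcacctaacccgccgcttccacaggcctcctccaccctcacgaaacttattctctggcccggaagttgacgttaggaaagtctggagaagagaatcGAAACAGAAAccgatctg
Eif2ak2, chr17:78882523-78882822, minus strand: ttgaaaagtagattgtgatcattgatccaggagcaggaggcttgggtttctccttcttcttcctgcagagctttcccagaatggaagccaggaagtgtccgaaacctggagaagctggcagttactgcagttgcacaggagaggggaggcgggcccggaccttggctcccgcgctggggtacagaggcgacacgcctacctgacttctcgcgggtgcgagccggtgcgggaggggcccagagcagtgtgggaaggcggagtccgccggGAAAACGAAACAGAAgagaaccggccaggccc
Adar, chr3:89730468-89730767, plus strand: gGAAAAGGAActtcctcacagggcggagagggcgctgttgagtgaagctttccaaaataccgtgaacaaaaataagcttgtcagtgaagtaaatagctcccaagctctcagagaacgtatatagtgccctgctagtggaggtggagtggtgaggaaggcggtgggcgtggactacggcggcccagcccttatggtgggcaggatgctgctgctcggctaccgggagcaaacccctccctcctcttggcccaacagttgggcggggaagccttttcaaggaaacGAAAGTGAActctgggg
Mavs, chr2:131233813-131234112, plus strand: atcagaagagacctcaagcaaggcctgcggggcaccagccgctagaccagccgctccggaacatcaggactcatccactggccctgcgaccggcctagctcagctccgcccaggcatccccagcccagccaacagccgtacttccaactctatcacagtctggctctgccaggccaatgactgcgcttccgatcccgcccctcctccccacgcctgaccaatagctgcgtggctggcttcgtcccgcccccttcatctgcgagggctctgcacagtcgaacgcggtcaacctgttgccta

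The full core was found in 3 of the 7 members with a window, Ddx58, Ifih1 and Eif2ak2, where it began 2, 32 and 18 bases after the annotated start. In Ddx58 it lay on the opposite strand. Of the 27025 genes with a window, 3.99% held this core in at least 1 window, as did 3.44% of all 32851 windows. The shorter GAAANNGAA, a pattern chosen after the sequences had been seen, was also present in Adar, 33 bases after the start that lies beside the counted transcript, which brought the number to 4 of 7 members; 9.76% of genes and 8.56% of all windows held it. Mavs, Samhd1 and Trex1 had neither. A second element, the gamma-activated site pattern TTCNNNGAA, which reads the same on both strands, was found in Samhd1, Adar and Eif2ak2, in 9.55% of genes and in 8.3% of all windows. These letters are a description of the windows; binding was not measured.

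Library facts that touch the results are few. The deposited values are normalised reads that sum to the same total in every library, and recovered whole reads ranged from 56988261 to 77199936 per library. Whether each library was made from its own mouse is not stated, and p-values therefore refer to the spread among these libraries, which may be technical. Qk, the targeted gene, was 2.13-fold higher rather than lower in the libraries labelled KO (11632 ± 800 against 24768 ± 1073 normalised reads, SD, n = 3 each). Cx3cr1, the locus that carries Cre, was 4.22-fold lower there (246161 ± 11084 against 58308 ± 4848). All directions are therefore given for libraries labelled KO relative to WT-labelled ones. With bulk RNA, fewer cells of a type and less RNA per cell cannot be told apart.

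Of the 10 members, 7 were higher in the libraries labelled KO (8 with trimmed-mean, or TMM, scaling, which adds Samhd1), 1 was lower and 2 did not pass (limma on log2(normalised reads + 1), adjusted p under 0.05 over 22472 genes). Among all genes tested, 34.6% passed, made up of 11.3% higher and 23.4% lower, all as shares of the genes tested. Zbp1 rose most and Tmem173 was the member that fell. The median log2 fold change of the 10 members was 0.65, beside -0.15 for all genes tested. The members were chosen with earlier results of these data known, so the comparison with all genes is a description only. In 9 of the 10 the values of the groups did not overlap, which held for 47.9% of all genes tested. TMM factors moved the median of all genes to -0.02, a shift that bears on the small differences of Mavs and Samhd1 below; the share of called genes that were higher went from 32.5% to 49.9%.

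**Figure D1:**
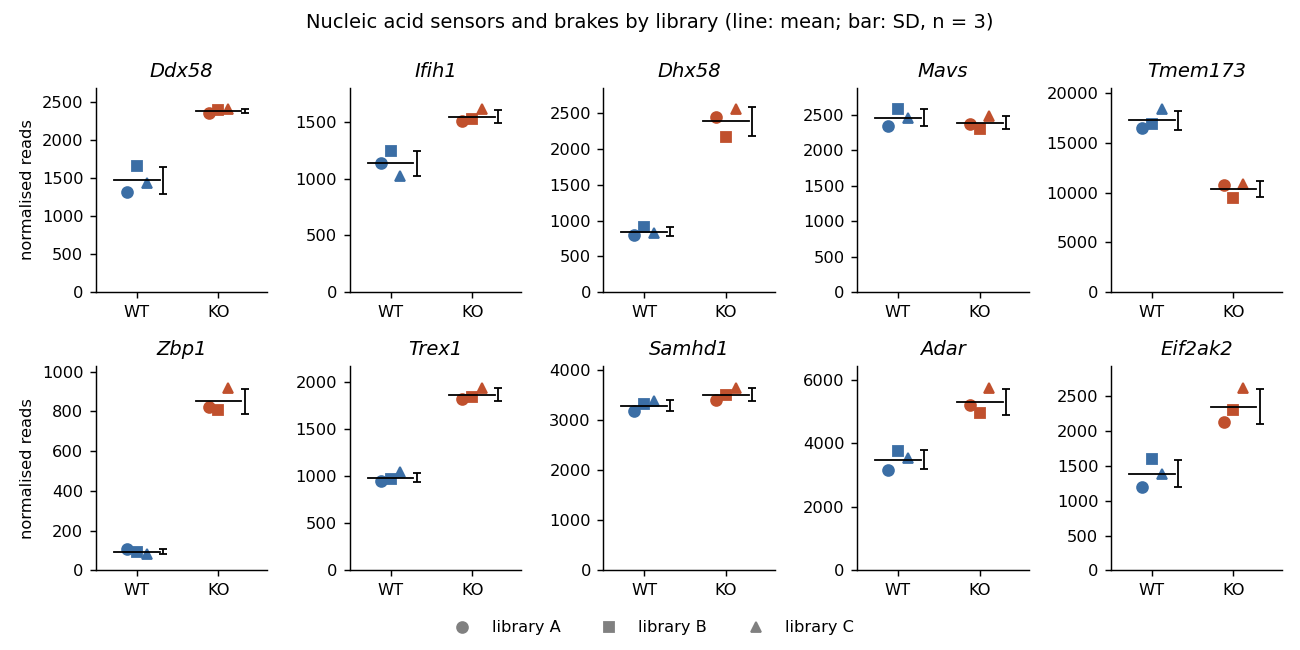
Normalised reads of each of the 10 genes in each library, with WT in blue and KO in red; the symbol gives the column letter, the line the mean and the bar the SD (n = 3), and each vertical axis starts at 0. The groups are apart in every panel except that of Mavs, but only narrowly for Samhd1 (3378.8 in WT C and 3391.9 in KO A). Tmem173 is the gene with the KO libraries below the WT libraries.

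The RNA helicases rose to different degrees. Values of single libraries are given in the order A, B and C throughout. Ddx58, the RIG-I gene, had 1309.3, 1661.9 and 1427.1 normalised reads in the WT libraries and 2346.2, 2384.4 and 2397.2 in the KO libraries. The KO libraries lay close together and all above the WT libraries. The rise was 1.62-fold, or 0.70 ± 0.09 (SE) in log2 units (limma, adjusted p = 0.000184). Its counted transcript maps to chromosome 4 (minus strand), bases 40204849 to 40239828 of GRCm38, with 18 exons.

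Ifih1, the MDA5 gene, had 1140.1, 1240.4 and 1023.2 normalised reads in the WT libraries and 1510.7, 1523.5 and 1610.1 in the KO libraries. The groups did not overlap, yet its rise was the smallest among the 7 called higher. It was 1.36-fold, or 0.45 ± 0.09 (SE) in log2 units (limma, adjusted p = 0.00239). Without WT C the log2 fold change was 0.38 and still passed (adjusted p = 0.0105, limma). Its counted transcript maps to chromosome 2 (minus strand), bases 62595798 to 62646211, with 16 exons.

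Dhx58, the LGP2 gene, rose by a larger fold than Ddx58 and Ifih1, whose products it regulates (the ratio to Ifih1 is tested further on). It had 797.7, 913.8 and 821.2 normalised reads in the WT libraries and 2452.4, 2163.2 and 2554.7 in the KO libraries. Every KO library stood above every WT library by more than the range within a group. The rise was 2.83-fold, or 1.5 ± 0.09 (SE) in log2 units (limma, adjusted p = 8.27e-07). Dhx58 maps to chromosome 11 (minus strand), bases 100694884 to 100704271, and its antisense gene Dhx58os shares 141 exon bases with it, 5.85% of the counted transcript. Dhx58os had 62.7 ± 5.52 normalised reads in WT and 171 ± 10.2 in KO (SD, n = 3 each), a 2.73-fold rise; no source used here says whether counting used the strand, and reads of the pair cannot be told apart over those bases.

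Mavs, the shared adaptor of RIG-I and MDA5, did not pass the test. Its values were 2338.0, 2573.0 and 2457.6 normalised reads in WT and 2366.3, 2301.3 and 2482.0 in KO, so the groups overlapped. The difference was -0.04 ± 0.07 (SE) in log2 units (limma, adjusted p = 0.681) with the deposited scaling and 0.09 (adjusted p = 0.329, limma) with TMM factors, so its sign depended on the scaling. Its counted transcript maps to chromosome 2 (plus strand), bases 131234063 to 131248022.

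The genes of the DNA arm went in opposite directions. Tmem173, the STING gene, had the highest level per kilobase of the members in WT. It had 16530.3, 16901.9 and 18349.6 normalised reads in the WT libraries and 10808.2, 9479.0 and 10827.1 in the KO libraries. All KO libraries were below all WT libraries. It was 1.66-fold lower, or -0.74 ± 0.08 (SE) in log2 units (limma, adjusted p = 5.44e-05); with TMM factors the value was -0.60 (adjusted p = 0.000207, limma). The annotation places it on chromosome 18 (minus strand), bases 35733681 to 35740554, with 8 exons.

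Zbp1, which encodes the sensor of Z-form nucleic acids, had the lowest level per kilobase of the members in WT and the largest fold. It had 106.9, 93.5 and 85.0 normalised reads in the WT libraries and 824.5, 806.1 and 919.7 in the KO libraries. No WT library came near the KO libraries. The rise was 8.94-fold, or 3.15 ± 0.12 (SE) in log2 units (limma, adjusted p = 6.04e-08). Its counted transcript maps to chromosome 2 (minus strand), bases 173206615 to 173218897.

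Trex1, the gene of the main cytosolic DNA exonuclease, had 944.1, 967.6 and 1038.8 normalised reads in WT and 1813.4, 1837.3 and 1935.9 in KO. The groups stood well apart, and the spread within each was small. It rose 1.89-fold, or 0.92 ± 0.07 (SE) in log2 units (limma, adjusted p = 7.16e-06). Its counted transcript maps to chromosome 9 (minus strand), bases 109057938 to 109059251, with 2 exons. All 1054 of its exon bases also belong to the transcript counted for Atrip, a gene of the DNA damage response on the same strand. Atrip itself was called higher, 1536 ± 32 against 2462 ± 57 normalised reads (SD, n = 3 each; log2 fold change 0.68, adjusted p = 2.75e-05, limma). The Atrip value exceeded that of Trex1 in each library, by 555.1, 587.9 and 514.9 in WT and by 617.9, 589.9 and 592.0 in KO. That remainder was 553 ± 36.6 in WT and 600 ± 15.6 in KO, 1.09-fold higher (two-sided exact permutation p = 0.10, the smallest that 3 against 3 allows), beside 1.89-fold for the Trex1 value itself. No source used here says how reads over the shared bases were assigned.

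**Figure D2:**
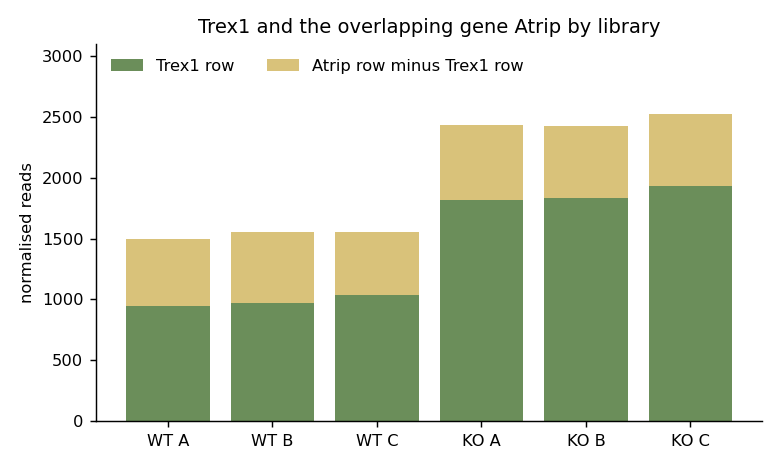
Normalised reads of Trex1 (green) and the amount by which the Atrip value exceeds it (yellow) in each of the 6 libraries; the height of a bar is the Atrip value. The yellow part ranges from 514.9 to 617.9 across the libraries, and the green part is higher in every KO library than in every WT library.

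Samhd1, the deoxynucleotide hydrolase gene, had 3178.2, 3310.9 and 3378.8 normalised reads in WT and 3391.9, 3491.6 and 3646.4 in KO. The KO libraries were all above the WT libraries, but the nearest values, 3378.8 and 3391.9, almost touched. The 1.07-fold difference did not pass with the deposited scaling (log2 fold change 0.09, SE 0.07, adjusted p = 0.31, limma). It passed with TMM factors, at a log2 fold change of 0.23 (adjusted p = 0.0172, limma). In the authors' deposited table Samhd1 has a log2 fold change of 0.23 and an adjusted p of 0.00636. The transcript counted spans bases 157097533 to 157135265 of chromosome 2 (minus strand).

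Adar, the gene of the RNA-editing enzyme ADAR1, was also called higher. It had 3155.4, 3763.6 and 3529.0 normalised reads in the WT libraries and 5204.4, 4940.8 and 5748.2 in the KO libraries. All KO libraries were higher than all WT libraries. The rise was 1.52-fold, or 0.61 ± 0.09 (SE) in log2 units (limma, adjusted p = 0.000374). Adar makes a long, interferon-inducible protein and a shorter constitutive one. The counted transcript lies on the plus strand of chromosome 3 at 89730748 to 89753446. It shares 5780 of its 5871 exon bases with the transcript that starts upstream at 89715022, which lacks the other 91. Bases found only in that upstream transcript were not counted. The value therefore does not separate transcripts from the different starts. On the opposite strand, the gene Chrnb2, a nicotinic receptor subunit gene, covers 17.3% of the counted bases with its own counted transcript; Chrnb2 had 466 ± 42.9 normalised reads in WT and 609 ± 83.8 in KO (SD, n = 3 each) and was called higher (adjusted p = 0.0324, limma).

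Eif2ak2, the PKR gene, had 1194.8, 1592.0 and 1380.1 normalised reads in the WT libraries and 2129.0, 2298.0 and 2619.8 in the KO libraries. Its values varied more within each group than those of Trex1, and the groups did not overlap. The rise was 1.69-fold, or 0.76 ± 0.11 (SE) in log2 units (limma, adjusted p = 0.000473). The transcript counted spans bases 78852564 to 78882573 of chromosome 17 (minus strand). The noncoding gene Gm26637 on the opposite strand shares 174 exon bases with it, 4.03% of its length.

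**Figure D3:**
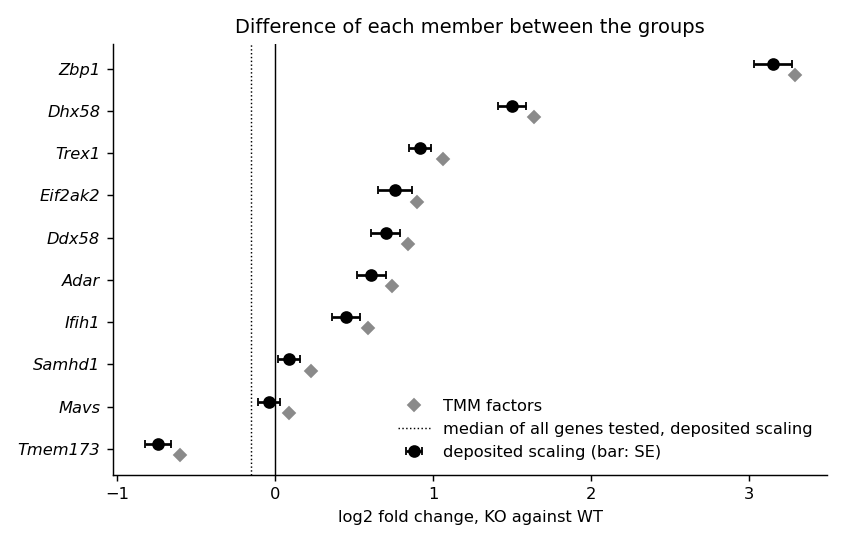
Log2 fold change of each of the 10 genes in KO against WT, from limma with the deposited scaling (black, bars are SE) and with TMM factors (grey diamonds); the dotted line is the median of all genes tested, -0.15. Zbp1 stands at 3.15 and Tmem173 at -0.74 with the deposited scaling, and Mavs lies on either side of 0 with the scaling.

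Among all genes tested, the log2 fold change of Zbp1 stood at percentile 99.7, that of Dhx58 at 97.1 and that of Trex1 at 92.2. Eif2ak2, Ddx58, Adar and Ifih1 stood at percentiles 90, 89.1, 87.2 and 83.7. Tmem173 stood at percentile 17.6. The authors' deposited table marks a list of 503 genes among its 55421 rows, and this list holds 2 of the 10, Zbp1 and Dhx58. That table gives log2 fold changes of 3.29 for Zbp1, 1.64 for Dhx58, 1.06 for Trex1 and -0.59 for Tmem173. In it 9 of the 10 members have an adjusted p under 0.05, all but Mavs. The share of all genes under 0.05 in that table was not counted. DESeq2 run here on the recovered reads of 22472 genes called 7076 of them.

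Levels were compared between members per kilobase of counted transcript. In WT, Tmem173 led with 7557 ± 421 normalised reads per kilobase, followed by Trex1 (936 ± 46.9), Samhd1 (845 ± 26.2), Mavs (834 ± 39.9) and Adar (596 ± 52.5; SD, n = 3 each). Samhd1 and Mavs overlapped in range and cannot be ordered. Ddx58 (382 ± 46.8), Dhx58 (354 ± 25.7) and Eif2ak2 (324 ± 46.4) also overlapped from each to the next, and below them came Ifih1 (209 ± 20) and Zbp1 (28.7 ± 3.33). All 1054 exon bases of Trex1 also belong to the transcript counted for Atrip. Its level may thus include Atrip reads, so its place above Samhd1 and Mavs in WT is not settled. In KO the order began again with Tmem173 (4541 ± 338) and Trex1 (1772 ± 61.8). Dhx58 came next at 1001 ± 85, in a run with Adar (907 ± 70.5) and Samhd1 (901 ± 32.9) in which each overlapped the next. Mavs (810 ± 31.1) and Ddx58 (619 ± 6.92) followed, the latter overlapping with Eif2ak2 (549 ± 58.2). Ifih1 (285 ± 9.95) and Zbp1 (257 ± 18.4) were lowest, and their ranges did not overlap. STING transcripts were thus the most abundant of the 10 per kilobase in both groups, also after their fall.

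Ratios between members within a library do not depend on the scaling between libraries, and 8 pairs were compared. The ratio of Dhx58 to Ifih1 was 0.7, 0.737 and 0.803 in WT and 1.62, 1.42 and 1.59 in KO. This ratio of reads, not adjusted for length, was below 1 in every WT library and above 1 in every KO library, a log2 difference of 1.05 (SE 0.08). The ratio of Mavs to Ifih1 went from 2.05, 2.07 and 2.4 to 1.57, 1.51 and 1.54, a log2 difference of -0.50 (SE 0.07). Ifih1 to Ddx58 went from 0.871, 0.746 and 0.717 to 0.644, 0.639 and 0.672, a log2 difference of -0.25 (SE 0.09). On the DNA side, the ratio of Trex1 to Tmem173 was 0.0571, 0.0572 and 0.0566 in WT and 0.168, 0.194 and 0.179 in KO. Of the 8 ratios it had the smallest SD within WT on the log2 scale, and its log2 difference was 1.66 (SE 0.06). Samhd1 to Trex1 went from 3.37, 3.42 and 3.25 to 1.87, 1.9 and 1.88. The ratio of Zbp1, a receptor that ADAR1 restrains in mice, to Adar went from 0.0339, 0.0248 and 0.0241 to 0.158, 0.163 and 0.16, a log2 difference of 2.56 (SE 0.16). Groups did not overlap for these 6 ratios, each with the smallest p possible for 3 against 3 (two-sided exact permutation p = 0.10; 0.133 adjusted over the 8 ratios), so none could pass 0.05. The ratios of Adar to Ifih1 and of Adar to Eif2ak2 overlapped between the groups, with log2 differences of 0.15 (SE 0.10; exact permutation p = 0.30) and -0.16 (SE 0.07; exact permutation p = 0.20). At this number of libraries a difference between Adar and either gene was not detectable, which does not show that they moved alike.

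**Figure D4:**
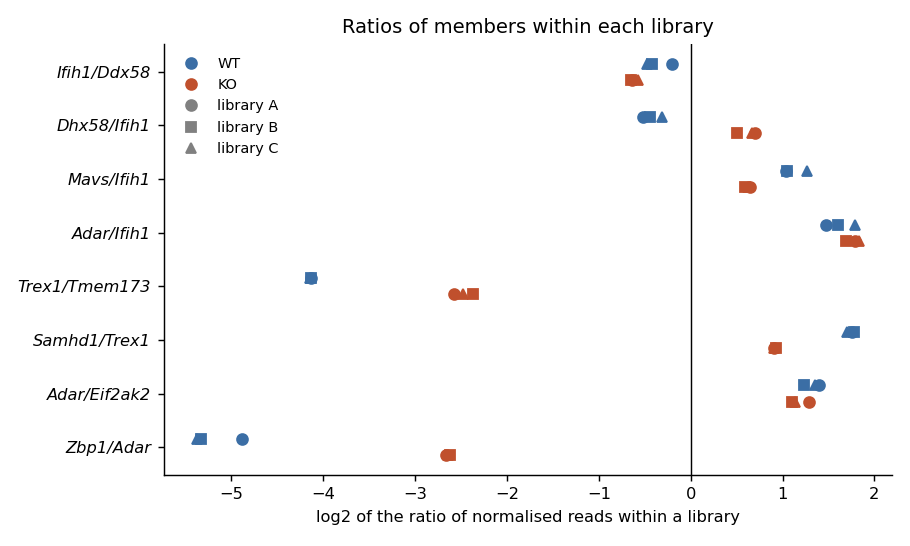
Log2 of the ratio of normalised reads of 8 pairs of members within each library, WT in blue and KO in red, with the symbol giving the column letter. The groups are apart for 6 pairs and overlap for Adar to Ifih1 and Adar to Eif2ak2.

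Within groups the members also varied together in part. In KO, library KO C held the highest value of all 10 members, against 36.7% of all genes tested that were highest there. Its lead was narrow for Tmem173 (10827.1 against 10808.2 in KO A) and for Ddx58 (2397.2 against 2384.4 in KO B). In WT, library WT B was highest for Ddx58, Ifih1, Dhx58, Mavs, Adar and Eif2ak2, and WT C for Tmem173, Trex1 and Samhd1; 24.7% and 47.2% of all genes tested were highest in those libraries. WT A was highest for Zbp1. These are descriptions of single libraries, and no test was made.

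Other genes of the same pathways were read from 6 lists with 99 genes, of which 98 were tested, with a median of 0.01 in log2 units. Of these, 24 were higher and 20 lower, beside 2529 (11.3%) and 5252 (23.4%) of all 22472 genes tested. Under TMM scaling 38 were higher and 14 lower, beside 3451 and 3458 of all genes tested. With the column letters as a replicate block the counts were 30 and 28, beside 3012 and 6366. The counts of single lists below are to be read beside the same backgrounds. In the list of RNA sensing and MAVS signalling, 9 of 24 genes were higher and 3 lower, or 13 and 2 with TMM factors (median 0.13). Irf7, the interferon-induced transcription factor that amplifies type I interferon, rose 6.39-fold, from 410 ± 29.3 to 2621 ± 346 normalised reads (SD, n = 3 each; adjusted p = 7.37e-08, limma). Ddx60, a helicase reported to promote RIG-I signalling, rose 2.01-fold, and Zc3hav1, the zinc-finger antiviral protein gene that binds CpG-rich viral RNA, rose 1.43-fold. Rnf135, a ubiquitin ligase that activates RIG-I, was 1.46-fold lower, from 1485 ± 61.4 to 1014 ± 81.6 (adjusted p = 0.000562, limma). The kinase gene Tbk1, with a log2 fold change of -0.04, and Irf3, with -0.15, which act just below MAVS and STING, did not pass.

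In the list of DNA sensing and STING signalling, 4 of 22 genes were higher and 3 lower, or 8 and 3 with TMM factors and 5 and 8 with the replicate block (median -0.07). Ifi204, a DNA-binding protein gene of the PYHIN family, rose 15.45-fold, from 332 ± 71.4 to 5134 ± 321 normalised reads, and Lrrfip1, which binds nucleic acids, rose 1.37-fold. Xrcc5, the Ku80 subunit gene of DNA end joining, was 2.27-fold lower, and Rnf5, a ubiquitin ligase that acts on STING, was 1.90-fold lower. Xrcc6, which encodes the partner subunit Ku70, had 715 ± 49.2 in WT and 714 ± 7.83 in KO and did not pass. Cgas, whose product makes the ligand of STING, had 1652 ± 46.7 in WT and 1749 ± 109 in KO, with overlapping groups; its log2 fold change of 0.08 did not pass (adjusted p = 0.438, limma), and with TMM factors it passed at 0.22 (adjusted p = 0.0414, limma). Xrcc6, Cgas, Tbk1 and Irf3, and further genes below named for not passing, were chosen after their values were seen.

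Of 18 genes for the removal of nucleic acids and other brakes, 2 were higher and 4 lower (5 and 3 with TMM factors, 4 and 6 with the replicate block; median -0.07). These counts are near the shares of all genes tested, 11.3% higher and 23.4% lower. Dnase1l3, a secreted DNase gene, went from 5.58 ± 2.9 to 42.5 ± 5.88 normalised reads, a low level in both groups. Adarb1, which encodes the second editing enzyme ADAR2, was 2.77-fold lower, from 380 ± 49.3 to 137 ± 10.9 (adjusted p = 1.58e-05, limma), opposite to Adar. Dnase2a, the lysosomal DNase gene, was 1.38-fold lower, and Setdb1, a histone methyltransferase gene that silences endogenous retroviruses, was 1.25-fold lower. Of the RNase H2 genes, which with Trex1, Samhd1, Adar and Ifih1 are mutated in Aicardi-Goutieres syndrome, Rnaseh2a, Rnaseh2b and Rnaseh2c had log2 fold changes of -0.09, 0.03 and -0.17 and did not pass.

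Downstream of PKR and ZBP1, 2 of 14 genes were higher and 5 lower (2 and 4 with TMM factors; median -0.04). The rises were those of Ppp1r15a, the stress-induced subunit of the phosphatase that reverses eIF2 phosphorylation, 3.76-fold from 12019 ± 1073 to 45232 ± 4020 normalised reads, and of Atf4, the transcription factor translated under that stress, 1.54-fold. Ripk3, the kinase through which ZBP1 triggers necroptosis, was 1.72-fold lower, from 350 ± 27.6 to 204 ± 17.9 (adjusted p = 0.000608, limma), and Dnajc3, an inhibitor of PKR, was 1.37-fold lower. Mlkl, the effector of necroptosis, had 37.1 ± 8.63 in WT and 59 ± 16.4 in KO and did not pass. Among the other eIF2 kinases, Eif2ak3 was 1.30-fold lower, and Eif2ak1 and Eif2ak4 had log2 fold changes of -0.08 and 0.01 and did not pass.

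For the endosomal sensors, which read nucleic acids taken up from outside, 1 of 12 genes was higher and 4 lower; with TMM factors 4 were higher and 2 lower, and with the replicate block 3 and 5 (median -0.11). Tlr3, the endosomal receptor for double-stranded RNA, was 1.89-fold lower, from 4121 ± 380 to 2179 ± 304 normalised reads (adjusted p = 9.54e-05, limma), while the cytosolic receptors Ddx58 and Ifih1 were higher. Tlr13, a receptor for bacterial ribosomal RNA in mice, was 1.43-fold lower. The fall of Myd88, the adaptor of most of these receptors, by 0.29 on the log2 scale passed with the deposited scaling and not with TMM factors (-0.15, adjusted p = 0.0822, limma). Slc15a3, a lysosomal transporter gene, was 1.48-fold higher, a call lost without WT C (adjusted p = 0.0567, limma).

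In the interferon loop 6 of 8 tested genes were higher and 1, Jak1, lower (6 and 0 with TMM factors; median 0.31). Stat2, a transcription factor of the interferon response, rose from 1941 ± 216 to 3879 ± 226 normalised reads (SD, n = 3 each; adjusted p = 1.51e-05, limma). The receptor gene Ifnar1 rose 1.29-fold, while Ifnar2, at -0.02, did not pass. Ifnb1, the interferon beta gene to which both sensing routes lead, was low in WT, at 4.0, 7.6 and 0.0 normalised reads. In KO it stood at 53.1, 58.2 and 63.8 (adjusted p = 0.000815, limma). A count of 0 allows up to 1.34 to 1.81 normalised reads by library. Ifna4 was listed at 0 in all 6 libraries.

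**Figure D5:**
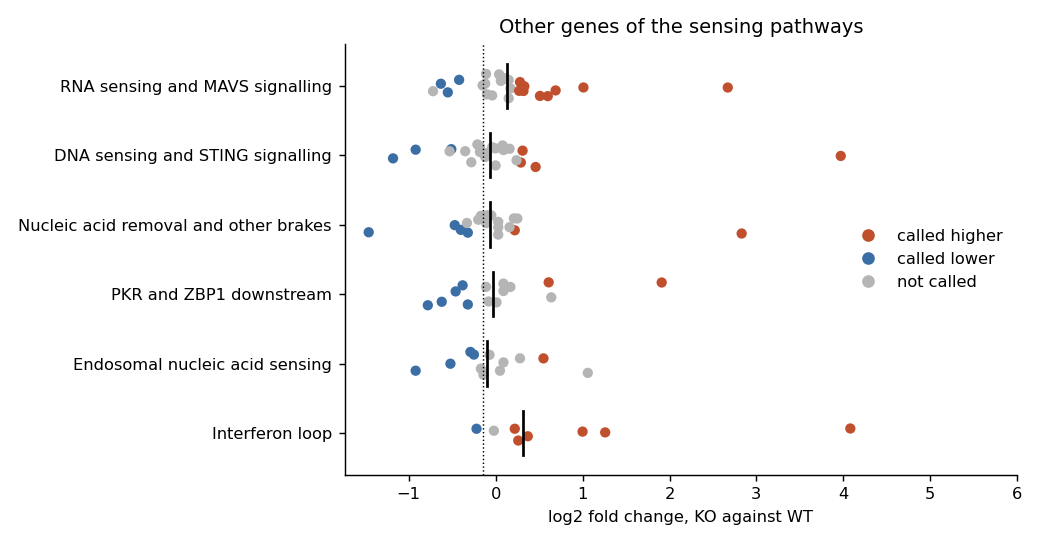
Log2 fold change in KO against WT of each tested gene in the 6 pathway lists; red and blue points passed as higher and lower, grey points did not pass, the black mark is the median of the list and the dotted line that of all genes tested. The points for Irf7, Ifi204, Dnase1l3, Ppp1r15a and Ifnb1 stand far to the right in their lists, while the list medians lie between -0.11 and 0.31.

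Markers of cell types moved with the groups. In every library the microglial list had a larger sum than any other list. Of 9 microglial markers 7 were lower and 0 higher, and their summed level was 1420615.6 to 1457520.8 normalised reads in WT and 701656.9 to 784882.8 in KO; with TMM factors 6 were lower and 2 higher. Of 8 neutrophil markers 6 were tested and all 6 were lower; their sum was 1886.2 to 16723.5 in WT, highest in WT C, and 53.6 to 115.8 in KO. Monocyte markers were lower in 3 of 6, with sums of 467.3 to 1498.9 in WT and 226.7 to 354.1 in KO. Border-associated macrophage markers were higher in 4 of 7, with sums of 1127.4 to 1748.4 in WT and 2081.7 to 3508.1 in KO, highest in KO C. The gene F13a1 stands in both of the last lists. Markers of neurons were lower in 8 of 8, of astrocytes in 6 of 7, of oligodendrocytes in 4 of 7 and of endothelial cells in 5 of 6, or 7, 6, 4 and 3 with TMM factors. Their sums ranged from 168.2 to 293.0 in WT and 49.9 to 55.3 in KO for neurons, 6315.7 to 9311.1 and 2891.7 to 3753.8 for astrocytes, 7887.3 to 20432.8 and 5444.1 to 6244.6 for oligodendrocytes, and 1898.3 to 3265.5 and 653.2 to 825.9 for endothelial cells. Of the lymphocyte markers, Cd5 was called higher (31.5 ± 5.09 in WT and 74.6 ± 5.4 in KO, SD, n = 3 each), and Lck (11.8 ± 2.11 and 3.45 ± 0.565), Cd79b (890 ± 51 and 640 ± 114) and Klrb1c (6.86 ± 3 and 0.917 ± 1.59) were called lower. Cd79a and Eomes did not pass, at means of 2.6 and 3.11 in WT and 4.49 and 0.833 in KO. Other lymphocyte markers were at or near 0: Cd3e, Cd3d, Cd3g and Trac of T cells, Ms4a1 and Pax5 of B cells and Ncr1, Nkg7 and Gzma of NK cells did not exceed 2.0 normalised reads in any library, with Pax5, Ncr1 and Gzma at 0 in all 6. The sums over the full lists were 41.0 to 50.6 in WT and 73.1 to 83.8 in KO for T cells, 837.7 to 933.3 and 517.2 to 730.3 for B cells and 8.9 to 13.2 and 0.5 to 3.7 for NK cells. Elane and Mpo of the neutrophil list were also at 0 in every KO library. The part of these cells in the results was not tested. WT C had the highest sums of the neutrophil, monocyte, neuron, astrocyte, oligodendrocyte, endothelial cell and B cell lists. It was not highest for the microglial, border-associated macrophage, T cell and NK cell lists. Without WT C, the called members had log2 fold changes of 3.07 for Zbp1, 1.48 for Dhx58, 0.96 for Trex1, 0.76 for Eif2ak2, 0.69 for Ddx58, 0.62 for Adar, 0.38 for Ifih1 and -0.69 for Tmem173, and each still passed. Without KO C they ran from 0.42 for Ifih1 to 3.09 for Zbp1, with -0.77 for Tmem173, and each passed too. Neither omission removed the marker differences between the groups, so neither tests the part of these cells. The neutrophil sums of WT A and WT B, 5316.1 and 1886.2, were still above those of every KO library. The border-associated macrophage sums of KO A and KO B, 2943.0 and 2081.7, were still above those of every WT library.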

How the data were processed

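RNA-seq values of 6 libraries were analysed. The deposited table holds a signal per gene and library: read counts that the authors scaled to an equal sum in all columns, as the values show. Dividing by 1 step per column turned 100% of values above 0 into whole numbers within 0.1, so reads were recovered for count tests. The authors also deposited a log2 fold change with its p-value. The submitters' processing notes name Trimmomatic (0.39), STAR (2.7.1a), HOMER (4.11.1), DESeq2 (1.26.0) and mm10/GRCm38. Control columns were read as WT and Treatment columns as KO from these names alone; their letters match no label. Members were matched by transcript to GENCODE M21.

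Of 55421 rows, 117 that repeat a symbol were dropped in favour of the row with the highest mean. Genes with a mean above 1 entered limma with trend (limma version 3.58.1 under R 4.3.3) on log2(value + 1), which understates changes of low genes, with Benjamini-Hochberg adjustment over all genes and a threshold of 0.05. SEs come from that fit and folds are ratios of group means. The procedure was tested on simulated data in which few genes changed, as many up as down. That test therefore does not bear on the choice of scaling. None of the 6 pairs of libraries within a group agreed within sampling noise (lowest chi-square, 25.3 per gene). Over 11597 genes, libraries of the same letter deviated together from their group means (correlations of 0.61 for A, 0.20 for B and 0.30 for C). For unlike letters the correlations ran from -0.36 to 0.08. A pairing by letter thus rests on the data alone. The main fit and the permutation tests did not use it, and only the replicate block did. The limits for a count of 0 cover counting error only, while SDs and SEs reflect the spread among libraries. Members and lists were chosen with earlier results of these data known. Named were all members, Qk, Cx3cr1, genes overlapping a member, and the up to 4 genes per list with the smallest p; others were chosen after their values were seen, and some listed genes are not reported here. Alternatives were TMM factors, a pseudocount of 0.1 or 5, leaving low genes in, keeping genes above the median mean, repeated symbols kept, a replicate block, each library left out, and tests of recovered reads with edgeR 4.0.16 (6713 genes called), DESeq2 1.42.0 (7076) and voom (6421), beside 7781 here.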

Additional observations from a re-analysis of the deposited data

How the results depend on the processing

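Under the 16 alternatives, the 8 called members kept their direction and their call, with 7 higher in all of them and 8 where Samhd1 was added. Samhd1 passed with TMM factors (0.23), edgeR (0.23), limma-voom (0.23) and DESeq2 (0.24; adjusted p = 0.0172, 0.0191, 0.0175 and 0.00473) and not under the other 12. These same 4 turned the sign of Mavs, to 0.09, 0.09, 0.09 and 0.10, without a call. The genes called lower numbered 5252 with the deposited scaling and 3458, 3353, 3066 and 3550 with TMM factors, edgeR, limma-voom and DESeq2. Listed pathway genes called higher numbered 24, and 38, 37, 37 and 40 with TMM factors, edgeR, limma-voom and DESeq2. Those called lower numbered 20, and 14, 13, 14 and 14 in the same order. With the replicate block 9378 genes passed against 7781, and 7 members were higher and 1 lower, as without it; the block changed no member's call, and the listed genes numbered 30 higher and 28 lower. With each library left out in turn, 6113 to 6732 genes passed, and the listed genes numbered 18 to 24 higher and 16 to 19 lower. The within-library ratios kept their direction with a pseudocount of 1 and with each library left out. The call of Setdb1 was lost with edgeR (adjusted p = 0.0518), and that of Myd88 with TMM factors and with edgeR, limma-voom and DESeq2 (adjusted p = 0.0822, 0.0843, 0.081 and 0.098); the cause was not tested. Depth limits low genes: 3 reads are worth 1.34 to 1.81 normalised reads, and Ifnb1 in WT C, at 0, lies under that limit.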
